A study of Saccharomyces cerevisiae with 6 samples.

Results

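The genes described here are 34 nuclear genes of the mitochondrial respiratory chain and ATP synthase of the yeast Saccharomyces cerevisiae, followed by RNA sequencing in 3 strains. They were taken by name from a table of 5625 gene models, each of the 34 matched 1 model, and all 34 passed the filter on low values. They comprise cytochrome c (CYC1), 9 subunits of complex III, 8 of complex IV, 3 NADH dehydrogenases, 5 subunits of the catalytic F1 part of ATP synthase, 7 of its membrane part FO and stalk, and the inhibitor protein INH1. The strains differ in the place of the genes for glycolysis and fermentation in the genome. By the labels, IMX605 carries them at a single locus on chromosome V, IMX606 carries them at a single locus on chromosome IX, and IMX372 keeps the major paralogs at their native loci and is titled MG aerobic. Each strain was sampled from 2 aerobic SMD bioreactor cultures, described as biological duplicates. The libraries, which are named here as in the deposited table, are R12 and R7 for IMX605, R13 and R8 for IMX606, and DSE001 and DSE002 for IMX372. Of 12 minor glycolytic paralogs with a gene model, 6 lay under the filter, with a highest value of 1.26 FPKM (fragments per kilobase of gene model, scaled to the fragments on genes), and 6 were tested. TDH2 had the highest value of these, at 23.1 and 43.4 FPKM in IMX372 beside 1.64 to 7.96 FPKM in the other 4 libraries. HXK1 went the other way, at 0.292 and 0.359 FPKM in IMX372 beside 3.18 to 6.14 in the others. By limma (adjusted p under 0.05) HXK1 was higher and TDH2 and ADH4 were lower in both single-locus strains. ADH2 was higher in IMX605 only. Except for HXK1, each of these genes lost a call without at least 1 library.

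The respiratory chain of this yeast passes electrons from NADH dehydrogenases on the inner mitochondrial membrane, which do not pump protons, through ubiquinone, complex III and cytochrome c to complex IV, which reduces oxygen. Complexes III and IV pump protons, and ATP synthase uses the returning protons to make ATP with its F1 head, while its stalk holds the head and its FO part conducts the protons. Most nuclear subunit genes are repressed by glucose and activated by the Hap2/3/4/5 complex, of which Hap4 is the regulated activating subunit, and by heme through Hap1.

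The libraries held 18754741 to 21370278 reads on genes, except IMX372 DSE001 with 70510681, and 3 reads on a gene of 1 kb correspond to 0.0425 to 0.160 FPKM. This floor covers counting error only. The labels tie the IMX372 libraries to an earlier deposit, so strain and library set cannot be told apart in any comparison with IMX372. FPKM is a share of the fragments on genes, so more transcript per cell and more cells with the transcript cannot be told apart, and total RNA per cell was not measured. The 34 genes together took 1.34% and 1.51% of the reads on genes in IMX605, 1.28% and 1.36% in IMX606, and 1.18% and 1.27% in IMX372. The 4 mitochondrially encoded subunits with a gene model were all under the filter, at no more than 1.13 FPKM in these libraries of polyadenylated RNA.

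Levels among the 34 genes, in FPKM and thus per length, covered a wide range, from NDE2 to CYC1, and all the others except NDI1 lay between 276 and 2604.6 FPKM in every library, as the plot of levels by gene shows. CYC1, the mobile carrier between complexes III and IV (chromosome 10, 516216 to 516545), had the highest mean level in each strain. It stood at 2666.4 and 3324.7 FPKM in IMX605, 2287.9 and 2489.2 in IMX606, and 1837.1 and 1664.4 in IMX372. The next by mean level was ATP15, the epsilon subunit of F1, in IMX605 (2429.1 FPKM) and in IMX372 (1323.0), and in IMX606 its mean of 2376.5 ± 323 (SD, n = 2) differed from that of CYC1 (2388.5 ± 142) by less than their spread. At the other end, NDE2, the lesser of the external NADH dehydrogenases, which oxidize cytosolic NADH, stood at 3.12 and 6.11 FPKM in IMX605, 3.19 and 4.14 in IMX606, and 2.42 and 1.85 in IMX372. Its counterpart NDE1 (276 to 376 FPKM over all libraries) and the internal dehydrogenase NDI1, which oxidizes matrix NADH (116 to 156), also had low levels. The order NDE1 above NDI1 above NDE2 held in all 6 libraries.

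**Figure D1:**
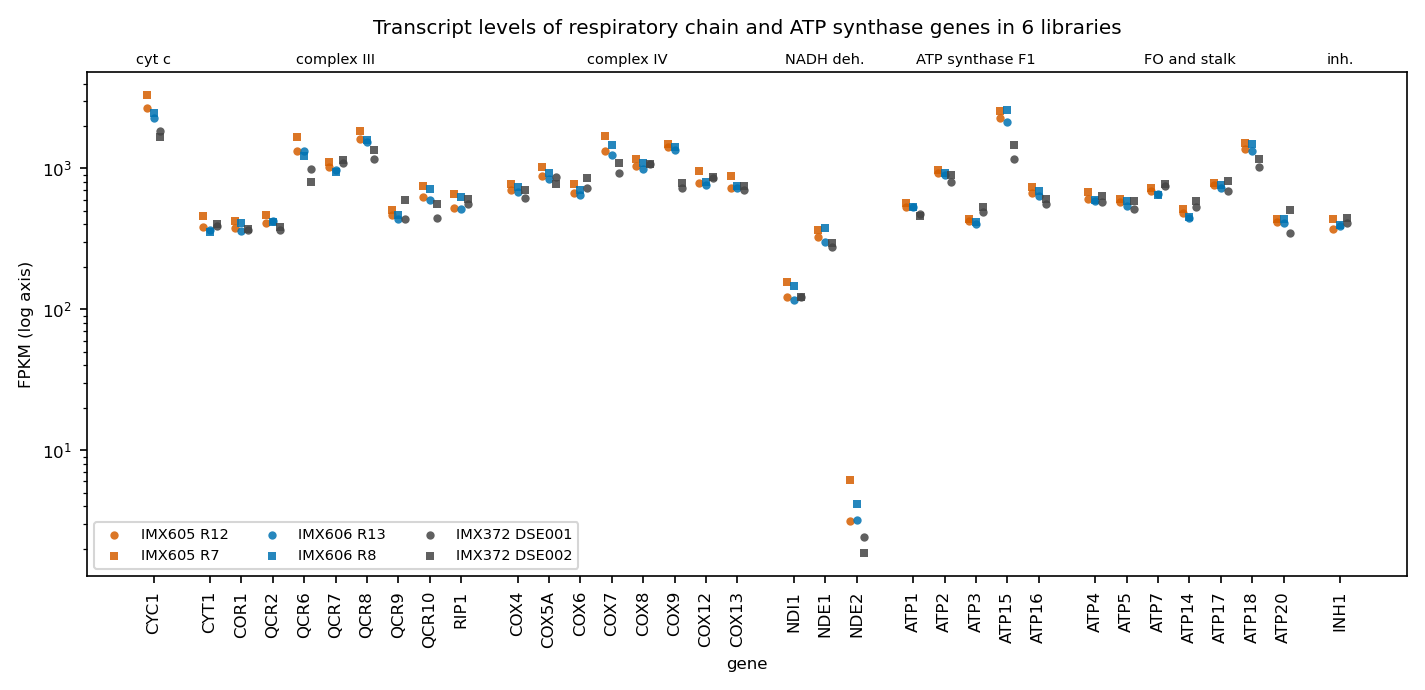
FPKM on a log axis of each of the 34 genes in the 6 libraries, grouped by complex. Each point is a library: orange for IMX605, blue for IMX606 and grey for IMX372. CYC1, ATP15, COX9 and QCR6 show both single-locus strains above IMX372, and NDE2 lies far below the rest at 1.85 to 6.11 FPKM.

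Within a complex the subunit mRNAs were not at 1 level, although the proteins assemble together. In complex III the highest mean in each strain was QCR8, a small membrane subunit, and it exceeded the lowest subunit 4.29-fold in IMX605, 4.38-fold in IMX606 and 3.40-fold in IMX372. The lowest was the core protein COR1 (403 ± 32.1 FPKM in IMX605, 367 ± 5.01 in IMX372) or the cytochrome c1 gene CYT1 (358 ± 7.92 in IMX606), both with gene models longer than the median of the 34. Complex IV was narrower, with a highest to lowest ratio of 2.10, 2.05 and 1.63 in the same order of strains, and its highest gene by strain mean was COX7 in IMX605, COX9 in IMX606 and COX8 in IMX372. These ranks turned between libraries, with COX9 above COX7 in R12, COX7 above COX9 in R8 and COX7 above COX8 in DSE002. In F1 the ratio was 5.63, 5.81 and 2.83, with ATP15 the highest each time. The alpha and beta subunits ATP1 and ATP2, which form the catalytic hexamer in equal numbers, stood at 550 ± 24.6 and 954 ± 35.1 FPKM in IMX605, at 532 ± 2.38 and 915 ± 22.8 in IMX606, and at 468 ± 8.25 and 850 ± 69.5 in IMX372 (SD, n = 2). ATP2 was thus above ATP1 in all 6 libraries. In FO and stalk the extremes were ATP18 and ATP20 in every strain, with ratios of 3.41, 3.33 and 2.55. FPKM divides by the length of the gene model, which for QCR9 is 960 bases, and the models of QCR10 (361 bases) and ATP14 (673 bases) are not whole codons long, so these 3 levels depend on how the models were drawn.

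Summed over the 34 genes, the level was 27591.7 and 31522.3 FPKM in IMX605, 26184.7 and 28171.6 in IMX606, and 22880.8 and 24697.1 in IMX372. Both libraries of each single-locus strain thus lay above both of IMX372. In the order IMX605, IMX606 and IMX372, the sum over complex IV was 8168.8 ± 842, 7566.7 ± 456 and 6702.6 ± 293 FPKM, and that over complex III was 7330.3 ± 789, 6638.4 ± 134 and 6017.6 ± 286 (SD, n = 2). For F1 it was 5070.3 ± 319, 4895.7 ± 395 and 3732.3 ± 337, without overlap of the single-locus strains and IMX372. ATP15 (189 bases) alone made up 2429.1, 2376.5 and 1323.0 FPKM of these F1 sums, while ATP3 was lower in both single-locus strains. In complex IV the widest differences in mean were those of COX7 (183 bases; 1516.8, 1358.7 and 1005.2 FPKM) and COX9 (180 bases; 1447.1, 1383.4 and 757). COX6 had a lower mean in both single-locus strains (721, 674 and 793). The sum for FO and stalk overlapped between strains, with 4911.3 and 5279.5 FPKM in IMX605 against 4428.9 and 5062.6 in IMX372.

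The comparison of IMX605 with IMX372 asks how transcription differs between the single locus, on chromosome V by the labels, and the native loci. Of the 34 genes, 9 rose in IMX605, 0 fell and 25 were not called by limma (Benjamini-Hochberg adjusted p under 0.05 over all 5459 genes tested). Over all genes tested, 15.0% were called higher and 15.0% lower. The median log2 change of the 34 genes was 0.16 against -0.03 over all genes tested, and 27 of the 34 were above 0. Every change given here is a difference of log2(FPKM + 1) values and so is too small for low genes. The called genes were cytochrome c, 3 of 9 subunits of complex III, 2 of 8 of complex IV, 1 of 3 NADH dehydrogenases, 1 of 5 F1 subunits and 1 of 7 of FO and stalk.

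COX9, the gene of a small membrane subunit of complex IV (chromosome 4, 333921 to 334100), was at 1415.1 and 1479.1 FPKM in IMX605 against 725 and 789 in IMX372. Its log2 change of 0.94 (SE 0.096, adjusted p = 3.19e-05, limma) was the highest of the 34 on this scale, while in FPKM its mean was 191% of that in IMX372 and the low NDE2 stood at 216%. COX7, another small subunit of complex IV (chromosome 13, 755880 to 756062), read 1333.5 and 1700.1 FPKM against 924 and 1086.3, a change of 0.59 (SE 0.14, adjusted p = 0.00796). In these genes both IMX605 libraries lay above both of IMX372, as in 31.5% of all genes tested. The calls came from these same libraries, so this order adds no support to them. The other 6 complex IV genes did not pass the test, with changes between -0.14 (COX6) and 0.22 (COX5A).

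In complex III, QCR6, the acidic hinge subunit (chromosome 6, 226340 to 226783), was at 1334.4 and 1667.5 FPKM in IMX605 and at 998 and 806 in IMX372, and rose by 0.73 (SE 0.13, adjusted p = 0.00184, limma). QCR8 (chromosome 10, 95216 to 95500) was at 1620.6 and 1836.8 FPKM against 1161.0 and 1340.8, a rise of 0.47 (SE 0.11, adjusted p = 0.00747). QCR10, a further small subunit, was at 626 and 755 FPKM against 447 and 557, a rise of 0.46 (SE 0.14, adjusted p = 0.0255). These are 3 of the 5 small subunits QCR6 to QCR10. QCR7 and QCR9 had changes of -0.07 and -0.08, and the nuclear genes of subunits with redox centres, CYT1 and the iron-sulfur protein RIP1, had changes of 0.10 and 0.01, all with adjusted p over 0.05. The 95% interval for RIP1 ran from -0.29 to 0.31 and that for CYT1 from -0.14 to 0.34. CYC1 itself rose by 0.77 (SE 0.12, adjusted p = 0.000636, limma), to 171% of the IMX372 mean.

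In ATP synthase, ATP15 (chromosome 16, 38823 to 39011) read 2290.5 and 2567.8 FPKM in IMX605 against 1171.0 and 1475.1 in IMX372, a rise of 0.88 (SE 0.13, adjusted p = 0.000539, limma). ATP18, a small FO subunit (chromosome 13, 98495 to 98674), read 1384.4 and 1524.4 FPKM against 1018.0 and 1157.3, a rise of 0.42 (SE 0.11, adjusted p = 0.0140). Both IMX605 libraries lay above both of IMX372 in either gene, as in 31.5% of all genes tested. The other 11 genes of ATP synthase and its inhibitor were not called, and their changes ran from -0.24 (ATP3, the gamma subunit of the rotor, adjusted p = 0.0857) to 0.28 (ATP16, the delta subunit of the rotor, adjusted p = 0.0636). ATP4, which forms much of the peripheral stalk, had a change of 0.07 (95% interval -0.16 to 0.30), and INH1, which blocks ATP hydrolysis when the membrane loses its potential, of -0.07 (-0.32 to 0.17). Among the dehydrogenases NDE2 rose by 0.79 (SE 0.26, adjusted p = 0.0370), from the low level given above, and NDE1 and NDI1 had changes of 0.27 and 0.17 without a call.

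The rises in IMX605 rested unequally on single libraries. Without IMX605 R7 the calls of NDE2 (0.40, adjusted p = 0.355), QCR8 (0.38, 0.0774), QCR10 (0.33, 0.192), ATP18 (0.35, 0.110) and COX7 (0.41, 0.0788) ended. Without IMX372 DSE001 the same 5 genes lost the call, with changes of 0.92, 0.36, 0.30, 0.33 and 0.47 and adjusted p of 0.0978, 0.0670, 0.190, 0.103 and 0.0869. NDE2 also lost it without IMX372 DSE002 (0.66, adjusted p = 0.234). COX9, CYC1 and QCR6 kept their call in all 18 other settings tried, leaving out of each library included. Counted by overlap instead, 16 genes had both IMX605 libraries above both of IMX372 (31.5% of all genes tested), and ATP3, ATP7 and ATP14 had both below (37.8% of all genes tested).

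**Figure D2:**
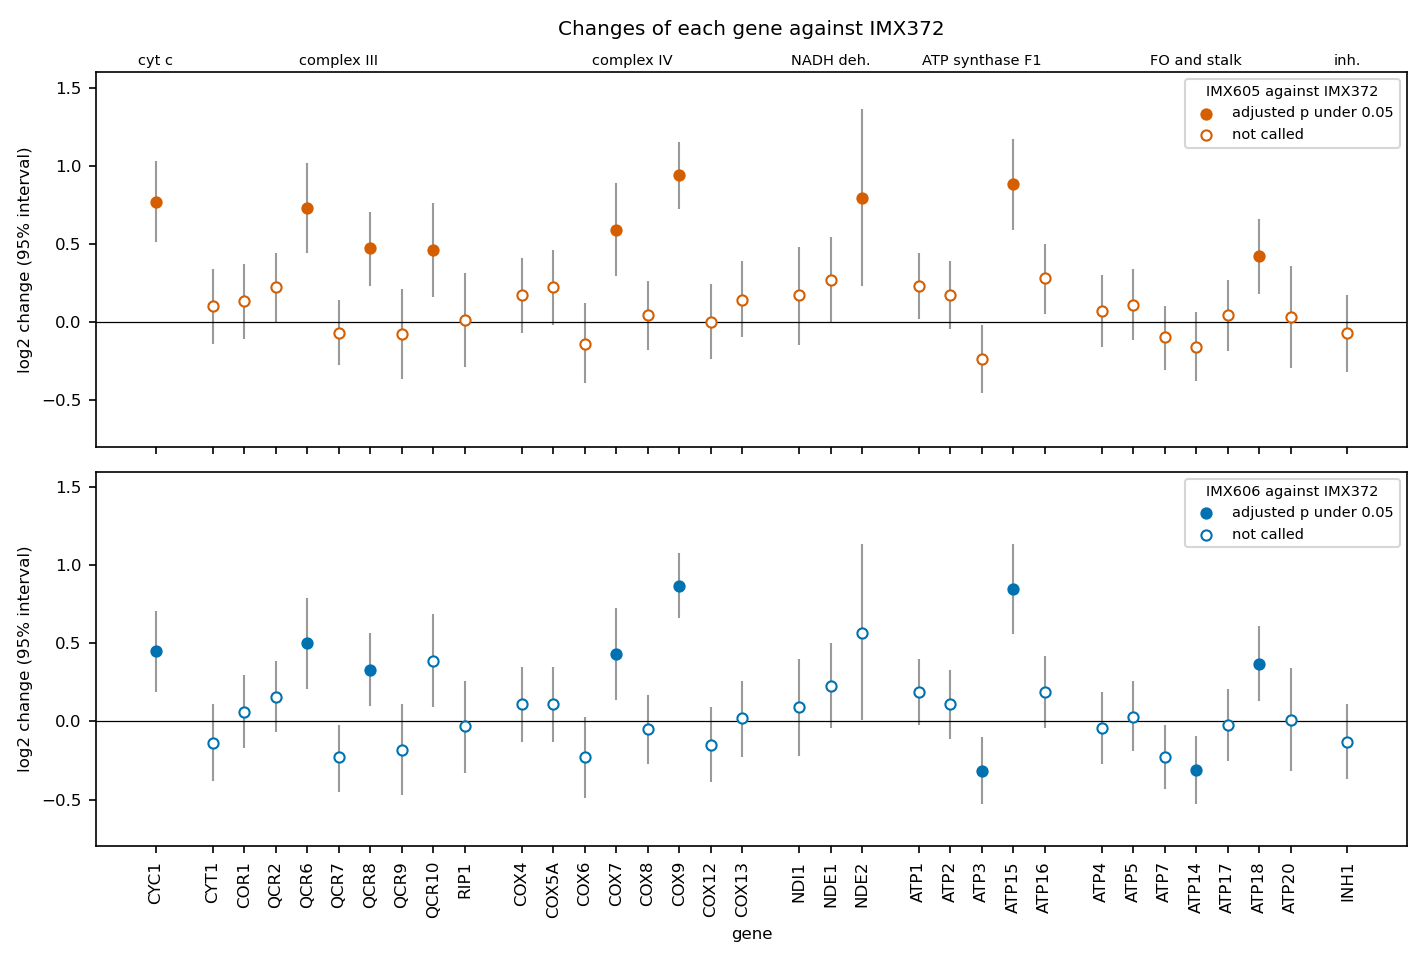
Log2 change of each of the 34 genes against IMX372, in IMX605 (upper) and in IMX606 (lower), with the 95% interval of the limma fit. Filled points passed an adjusted p of 0.05: 9 genes, all higher, in IMX605, and 7 higher and 2 lower in IMX606.

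The comparison of IMX606 with IMX372 asks the same of the single locus that the labels place on chromosome IX. It uses the same IMX372 libraries, so the results of both comparisons are not independent. Of the 34 genes 7 rose, 2 fell and 25 were not called, where 11.1% of all genes tested were called higher and 12.8% lower. The median change was 0.08 against -0.06 over all genes tested, and 21 of 34 were above 0. COX9 had the highest change on the log2(FPKM + 1) scale, 0.87 (SE 0.096, adjusted p = 6.11e-05, limma), at 1351.1 and 1415.8 FPKM. ATP15 followed with 0.85 (SE 0.13, adjusted p = 0.000802), at 2148.3 and 2604.6 FPKM. Each of these 4 values lay above both IMX372 values of its gene, an order shared by 25.7% of all genes tested.

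Further rises in IMX606 were those of QCR6 (0.50, SE 0.13, adjusted p = 0.0187, 1322.1 and 1220.6 FPKM), CYC1 (0.45, SE 0.12, adjusted p = 0.0183), and COX7 (0.43, SE 0.14, adjusted p = 0.0390, 1245.6 and 1471.8 FPKM). ATP18 rose by 0.37 (SE 0.11, adjusted p = 0.0304) at 1318.8 and 1491.9 FPKM, and QCR8 by 0.33 (SE 0.11, adjusted p = 0.0433) at 1549.5 and 1591.8 FPKM. In all 5 genes both IMX606 libraries lay above both of IMX372, as in 25.7% of all genes tested. The calls came from these same libraries, so this order adds no support to them. QCR10 (0.39, adjusted p = 0.0620) and NDE2 (0.57, adjusted p = 0.129) did not pass here.

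The falls in IMX606 were those of ATP3 and ATP14, a subunit of the peripheral stalk. ATP3 was at 403 and 415 FPKM against 488 and 532 in IMX372, and fell by 0.32 (log2 change -0.32, SE 0.098, adjusted p = 0.0375, limma). ATP14 was at 448 and 450 FPKM against 531 and 584, and fell by 0.31 (log2 change -0.31, SE 0.099, adjusted p = 0.0426). The strains did not overlap in either gene, and both calls ended in 12 of 18 other settings, among them median-of-ratios scaling and each left-out library. Over all 34 genes, 13 had both IMX606 libraries above both of IMX372 (25.7% of all genes tested) and 8 had both below (36.7%).

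Single libraries weighed on this comparison too. Without IMX372 DSE002 the calls of ATP15 and COX9 remained, and QCR6 (0.35, adjusted p = 0.184), CYC1 (0.38, 0.152), QCR8 (0.44, 0.0605), ATP18 (0.46, 0.0604) and COX7 (0.55, 0.0855) lost theirs. Without IMX372 DSE001 the calls of ATP15, COX9 and QCR6 remained, and CYC1 (0.52, adjusted p = 0.0551), QCR8 (0.23, 0.214), ATP18 (0.28, 0.166) and COX7 (0.32, 0.224) were lost. Without IMX606 R8 those same 3 remained, and CYC1 (0.39, adjusted p = 0.0514), QCR8 (0.31, 0.102), ATP18 (0.28, 0.135) and COX7 (0.31, 0.131) were lost. Without IMX606 R13, QCR8 was lost (0.35, adjusted p = 0.0771). ATP3 and ATP14 had adjusted p of 0.0542 to 0.206 over the 6 libraries left out.

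Gene length moved with these rises. The 34 gene models have a median of 465 bases (180 to 1683), and 20 of them (58.8%) are at most 600 bases long, as against 14.4% of all genes tested, whose median is 1266 bases. Genes of at most 200 bases were higher as a class in the single-locus strains: of all 16 such genes 81.2% were called higher in IMX605 and 75.0% in IMX606, with median changes of 0.88 and 0.62. The 4 shortest of the respiratory genes, ATP18 and COX9 (180 bases each), COX7 (183) and ATP15 (189), are among these 16, and their median changes were 0.74 and 0.64. Of 117 genes of 201 to 300 bases, 51.3% and 38.5% were called higher, but of the 4 respiratory genes there only QCR8 was, while COX8, COX12 and INH1 had changes of 0.04, 0.00 and -0.07 in IMX605. Of 297 genes of 301 to 450 bases 30.0% and 18.9% were called higher, and of the 8 respiratory genes 3 (CYC1, QCR6, QCR10) and 2 (CYC1, QCR6). Among the 7 respiratory genes of 601 to 1000 bases 0 were called higher in either strain, beside 13.2% and 8.93% of the 1187 genes of that length. In IMX606, 2 of the 7 (ATP3 and ATP14) were called lower, beside 18.4% of those 1187 genes.

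**Figure D3:**
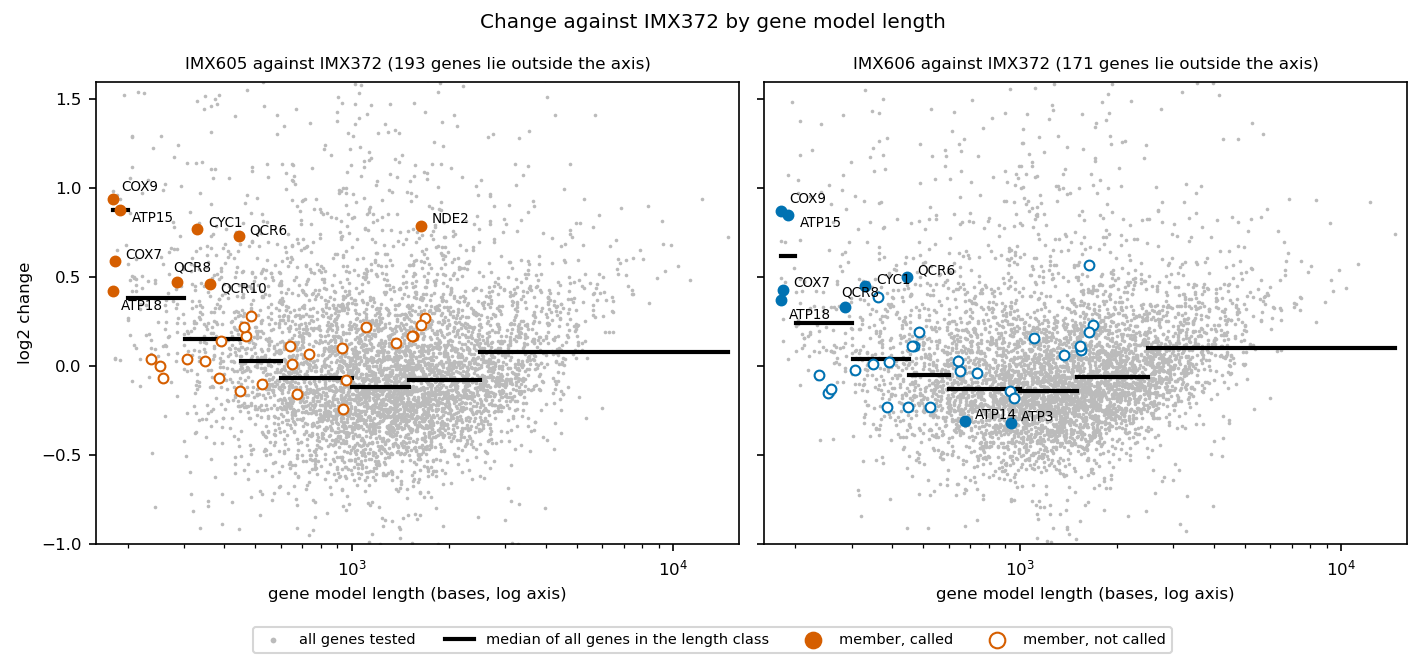
Log2 change against IMX372 over gene model length (log axis) for IMX605 (left) and IMX606 (right). Grey points are all genes tested, black bars the median of each length class, and coloured points the 34 respiratory genes, filled where called. The bar of genes up to 200 bases stands at 0.88 and 0.62, and COX9, ATP15, COX7 and ATP18 lie around it.

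By library, the median deviation of the 16 shortest genes from their own mean, on the log2 scale, was 0.22 and 0.38 in IMX605, 0.12 and 0.25 in IMX606, and -0.56 and -0.41 in IMX372. The shortest genes thus stood lower in both IMX372 libraries than in the other 4, and since strain and library set coincide, their parts cannot be told apart. With the smooth trend of each library over gene length removed, 7 respiratory genes were called higher and 3 lower in IMX605, and 3 higher and 3 lower in IMX606. Over all genes tested the shares called higher and lower in that setting were 15.6% and 12.6% in IMX605 and 11.7% and 7.95% in IMX606. COX9 (0.41, adjusted p = 0.0153, limma) and QCR6 (0.64, adjusted p = 0.0117) stayed called in IMX605, as did CYC1 (0.55, adjusted p = 0.00959) and NDE2 (0.90, adjusted p = 0.0343). ATP1 (0.34), NDE1 (0.38) and QCR2 (0.31) were then called too. ATP18 (-0.11), COX7 (0.07), QCR8 (0.18), QCR10 (0.28) and ATP15 (0.38, adjusted p = 0.0530) were not. The falls then called were COX8 (-0.34), COX12 (-0.35) and INH1 (-0.41). In IMX606 the calls after removal were ATP15 (0.43, adjusted p = 0.0442), COX9 (0.43, adjusted p = 0.0158) and QCR6 (0.49, adjusted p = 0.0388) as rises, and COX8 (-0.34), COX12 (-0.41) and INH1 (-0.37) as falls. CYC1 (0.33, adjusted p = 0.0742), ATP18 (-0.07), COX7 (0.00) and QCR8 (0.15) were not called in IMX606.

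COX9 and QCR6 were thus the respiratory genes called in both single-locus strains with and without that trend. Across the 20 respiratory genes of at most 600 bases, the Pearson correlation of log2 length with the change was -0.45 for IMX605 and -0.51 for IMX606, and over all 787 genes of that length it was -0.20 and -0.22. Without a limit on length it was -0.27 and -0.27 over the 34 genes and -0.04 and 0.01 over all 5459. These genes share their libraries and are not independent. None of the 34 models overlaps another gene model, and none has a neighbour on the opposite strand within 500 bases at 10 times its level or more.

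The single-locus strains were compared with each other to ask whether the position of the locus matters, without the IMX372 libraries of the earlier deposit in the contrast. Of the 34 genes 0 were called by limma or by voom on recovered reads, where 0.0733% of all genes tested were called higher and 0.128% lower (0.202% in either direction), and 1 (CYC1) had an unadjusted p under 0.05. CYC1 was 0.32 higher in IMX605 (95% interval 0.06 to 0.58, adjusted p = 0.998). All 34 changes were above 0, from 0.02 (ATP20) to 0.32, with a median of 0.08 against 0.02 over all genes tested. For COX9 the interval of the difference ran from -0.15 to 0.28, for ATP15 from -0.25 to 0.32 and for QCR6 from -0.06 to 0.52. In 9 genes both IMX605 libraries lay above both of IMX606 (15.7% of all genes tested), and in 0 both lay below (12.7%).

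The cultures of a strain differed in the same way over many of these genes. IMX605 R7 was above R12 in 34 of 34, with a median log2 difference, R12 minus R7, of -0.17, where 61.7% of all genes tested were higher in R7. The gap was widest for NDE2 (-0.79) and narrowest for ATP3 (-0.04). IMX606 R8 was above R13 in 29 of 34 (median -0.09), and IMX372 DSE002 was above DSE001 in 27 of 34 (median -0.12), beside 59.5% and 68.6% of all genes. QCR6 went the other way in both of these strains, by 0.12 and 0.31. The median gap between cultures thus reached, in every strain, the size of the median difference between IMX605 and IMX606 (0.08). It also reached that of the median change of IMX606 against IMX372 (0.08). In IMX605 it reached the size of that strain's median change against IMX372 as well (0.16).

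**Figure D4:**
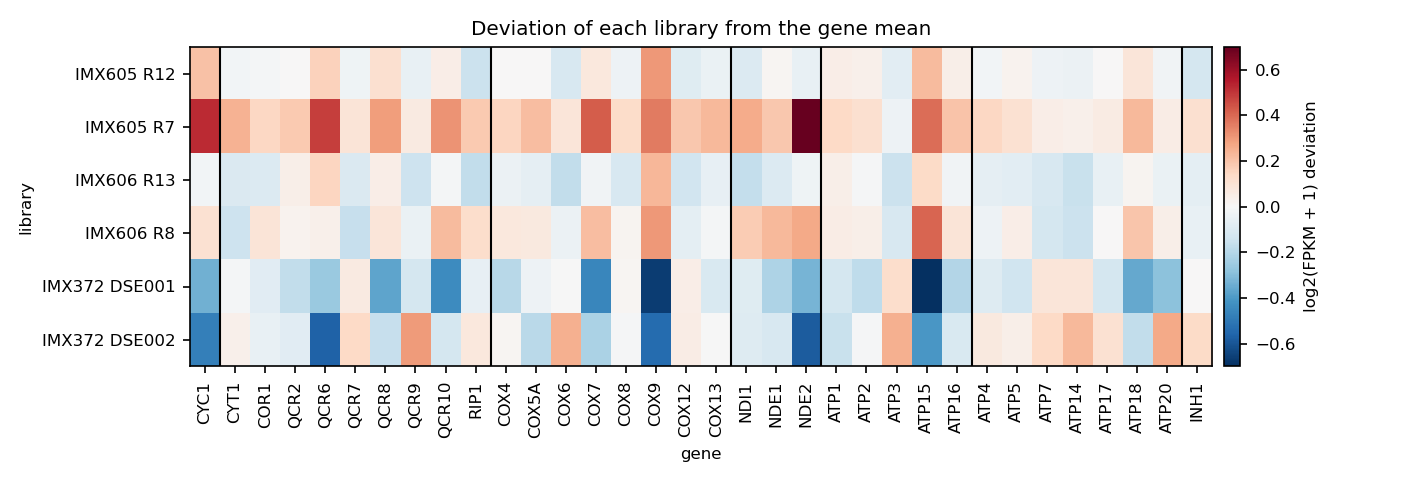
Deviation of each library from the gene's mean over the 6 libraries, in log2(FPKM + 1), with genes in columns and libraries in rows. The row of IMX605 R7 is above the mean for nearly all genes, and both IMX372 libraries are below the mean at CYC1, QCR6, COX9, NDE2 and ATP15.

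Isoforms with a known partner were compared as shares of the summed FPKM of the pair. CYC7, the isoform of cytochrome c known for use at low oxygen, made up 1.12% and 1.23% of CYC1 plus CYC7 in IMX605, 1.15% and 0.915% in IMX606, and 0.592% and 0.585% in IMX372. Its level was 30.1 and 41.3 FPKM in IMX605, 26.5 and 23.0 in IMX606, and 10.9 and 9.80 in IMX372. CYC7 rose by 1.67 (SE 0.16, adjusted p = 1.49e-05, limma) in IMX605 and by 1.18 (SE 0.16, adjusted p = 0.000254) in IMX606, beside 0.77 and 0.45 for CYC1. The share of CYC7 was higher in every single-locus library than in either of IMX372, and the difference between the changes of both genes was not tested. NDE2 made up 0.953% and 1.64% of the external dehydrogenases in IMX605, 1.05% and 1.09% in IMX606, and 0.866% and 0.620% in IMX372. For COX5A and its low-oxygen counterpart COX5B no share is given, since COX5B was not analysed here.

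Other genes of respiration were followed in 12 lists drawn from general knowledge, with 129 genes tested. In IMX605 30 of them (23.3%) were called higher and 10 (7.75%) lower, and in IMX606 15 (11.6%) higher and 9 (6.98%) lower. Over all genes tested, 15.0% were called higher and 15.0% lower in IMX605, and 11.1% and 12.8% in IMX606. The share of the 129 genes called in either direction was 31.0% and 18.6%, beside 30.0% and 23.9% of all genes tested. In 12 and 5 genes, respectively, the call held in all 18 other settings. These were CYC7, SDH6, STF2, TIM11 and TIM17 in both strains, and FMC1, GUT2, HEM1, ROX1, SDH4, SDH8 and STF1 in IMX605.

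In the list of other subunits and paralogs, most of them of ATP synthase, 4 of 6 tested genes rose and 0 fell in each single-locus strain. The shares over all genes tested were 15.0% higher and 15.0% lower in IMX605, and 11.1% and 12.8% in IMX606. STF2, a protein that stabilizes the bound inhibitor, was at 193 and 277 FPKM in IMX605, 181 and 201 in IMX606, and 89.8 and 97.9 in IMX372. It rose by 1.29 (SE 0.15, adjusted p = 8.21e-05, limma) and 1.02 (SE 0.15, adjusted p = 0.000575), and STF1, a relative of INH1, by 1.03 and 0.81. These values stand beside those of INH1 itself, which had changes of -0.07 and -0.13 without a call. TIM11, the e subunit involved in dimers of the enzyme, rose by 0.73 and 0.59, while ATP19 and COX26 were not called. STF1 lost its call in IMX606 without IMX372 DSE001 (0.70, adjusted p = 0.103) or DSE002 (0.92, adjusted p = 0.0651). All 4 are short, at 255 (STF2), 261 (STF1), 291 (TIM11) and 342 (CYC7) bases, and the calls of STF2, TIM11 and CYC7 held with the length trend removed. In that setting STF1 was not called in IMX606 (0.58, adjusted p = 0.0513), and ATP19 was called lower in both strains (-0.54, adjusted p = 0.00634, and -0.47, adjusted p = 0.0141).

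Succinate dehydrogenase, complex II, links the citric acid cycle to ubiquinone. In its list, which holds subunits and assembly factors, 5 of 8 genes were higher and 0 lower in IMX605, and 3 of 8 were higher in IMX606. Beside these stand 15.0% higher and 15.0% lower of all genes tested in IMX605, and 11.1% and 12.8% in IMX606. SDH6, an assembly factor, was at 83.9 and 106 FPKM in IMX605, 58.9 and 88.1 in IMX606, and 23.7 and 31.6 in IMX372. Its changes of 1.75 (SE 0.19, adjusted p = 5.35e-05, limma) and 1.36 (SE 0.19, adjusted p = 0.000408) were the highest of this list, and its model is 240 bases long. SDH4, a membrane anchor, rose by 0.70 and 0.46, and SDH8, a further assembly factor, by 0.63 and 0.43. In IMX605 the call of SDH1 ended without R7 (0.29, adjusted p = 0.253) or DSE002 (0.30, adjusted p = 0.195), and that of SDH5 without R7 (0.34), DSE001 (0.52) or DSE002 (0.52), at adjusted p of 0.0577 to 0.144. In IMX606 the calls of SDH4 and SDH8 ended without R8 (0.28 and 0.31), without DSE001 (0.49 and 0.35) and without DSE002 (0.43 and 0.50), at adjusted p of 0.0588 to 0.161. With the length trend removed, 6 of 8 in IMX605 and 3 of 8 in IMX606 were called higher and 0 lower. Of other electron donors, GUT2, which feeds electrons from glycerol 3-phosphate, rose by 0.72 and 0.46, and the D-lactate dehydrogenase DLD1 fell, with changes of -0.42 in both strains. GUT2 lost its call in IMX606 without R13 (0.37, adjusted p = 0.128) or DSE002 (0.34, adjusted p = 0.202). DLD1 lost it in IMX605 without R12 (-0.41, adjusted p = 0.0590) or R7 (-0.44, adjusted p = 0.0528), and in IMX606 without DSE001 (-0.38, adjusted p = 0.0556). In the synthesis of ubiquinone 0 of 11 genes were called in either strain (limma), with 0 and 1 at an unadjusted p under 0.05.

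Heme is the cofactor of complexes III and IV and of cytochrome c. HEM1, which makes the first committed intermediate, was at 104 and 112 FPKM in IMX605, 108 and 84.4 in IMX606, and 66.7 and 61.8 in IMX372, and rose by 0.74 (SE 0.13, adjusted p = 0.00149, limma) and 0.57 (SE 0.13, adjusted p = 0.00893). HEM13, an oxygen-requiring step, had changes of -0.49 (adjusted p = 0.0103) and -0.39 (adjusted p = 0.0341) and so moved the other way. Of the 8 heme genes 1 rose in each strain and 2 and 1 fell. Beside these stand 15.0% higher and 15.0% lower of all genes tested in IMX605, and 11.1% and 12.8% in IMX606. The other fall in IMX605 was that of HEM14 (-0.46, adjusted p = 0.0219, limma). HEM14 lost its call without R12 (-0.37), R7 (-0.55) or DSE002 (-0.37). The fall of HEM13 ended in IMX605 without R7 (-0.41, adjusted p = 0.103) or DSE001 (-0.38, adjusted p = 0.0702), and in IMX606 without R8 (-0.34, adjusted p = 0.101) or DSE001 (-0.28, adjusted p = 0.161) and with the length trend removed (-0.26, adjusted p = 0.174). The call of HEM1 in IMX606 ended without R13 (0.39, adjusted p = 0.0556) and without DSE002 (0.51, adjusted p = 0.0887).

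Over all genes tested, for the counts that follow, 15.0% were called higher and 15.0% lower in IMX605, and 11.1% and 12.8% in IMX606. Of 32 assembly factors for complex IV, 8 rose and 1 fell in IMX605, and 0 rose and 1 fell in IMX606. PET122, which activates translation of a mitochondrial complex IV mRNA, was the fall in both, from 14.3 and 12.5 FPKM in IMX372 to 8.31 and 6.64 in IMX605 (-0.77, adjusted p = 0.00530) and 9.41 and 7.52 in IMX606 (-0.61, adjusted p = 0.0213). All 8 rises in IMX605, among them COA6 (0.53), COA3 (0.57) and PET100 (0.66), lost their call without R7 and with the length trend removed, where 1 of 32 (MSS51) was called higher. The changes without R7 were 0.44 (COA6, adjusted p = 0.0662), 0.46 (COA3, 0.0884) and 0.54 (PET100, 0.0876). For complex III and cytochrome c, 2 of 12 rose and 0 fell in IMX605 (CBP4 at 0.76, CYC3 at 0.55) and 1 rose and 2 fell in IMX606 (CBP4 at 0.47, CBS2 at -0.50, BCS1 at -0.39). For ATP synthase 0 of 11 rose in either strain, 2 fell in IMX605 (FMC1 and ATP10) and 1 in IMX606 (ATP11 at -0.39). Of 6 carriers and pores, PET9, the main ADP/ATP carrier, rose by 0.65 in IMX605, and POR2 fell in both strains (-0.39 and -0.34). AAC3 of the same list fell in IMX605 (-0.43, adjusted p = 0.0441, limma), and was not called with the length trend removed (-0.34). PET122 lost its call in IMX605 without R7 (-0.62) or DSE001 (-0.67), and in IMX606 without R8 (-0.46), DSE001 (-0.51) or DSE002 (-0.70). With the length trend removed PET122 was not called in IMX606 either (-0.48, adjusted p = 0.0794, limma). CBP4, CYC3, CBS2, BCS1, ATP10, ATP11, PET9, AAC3 and POR2 each lost their call without at least 1 library. In protein import into mitochondria 6 of 19 rose and 0 fell in IMX605, and 4 rose and 0 fell in IMX606. TIM17, a channel component of the inner membrane, rose by 0.68 (SE 0.10, adjusted p = 0.000682) and 0.53 (SE 0.10, adjusted p = 0.00403), and its call held in all other settings in both strains. In IMX605 the calls of MAS2, SSC1 and TIM10 ended without R7, without DSE001 and without DSE002, with changes of 0.20 to 0.45 and adjusted p of 0.0518 to 0.297, and that of TIM23 without DSE002 (0.35, adjusted p = 0.072). In IMX606 the calls of TOM6 and MAS2 ended without R8, DSE001 or DSE002 (changes of 0.27 to 0.48, adjusted p of 0.0546 to 0.193), that of MAS2 also without R12 (0.36, adjusted p = 0.0526) or R7 (0.36, adjusted p = 0.0524), and that of TIM23 without DSE002 (0.28, adjusted p = 0.145). With the length trend removed TOM6 was not called in either strain (0.14, adjusted p = 0.316, and 0.05, adjusted p = 0.773), and TOM7 was called lower in IMX605 (-0.48, adjusted p = 0.0136). The list then had 7 higher and 1 lower in IMX605, and 3 higher and 0 lower in IMX606.

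**Figure D5:**
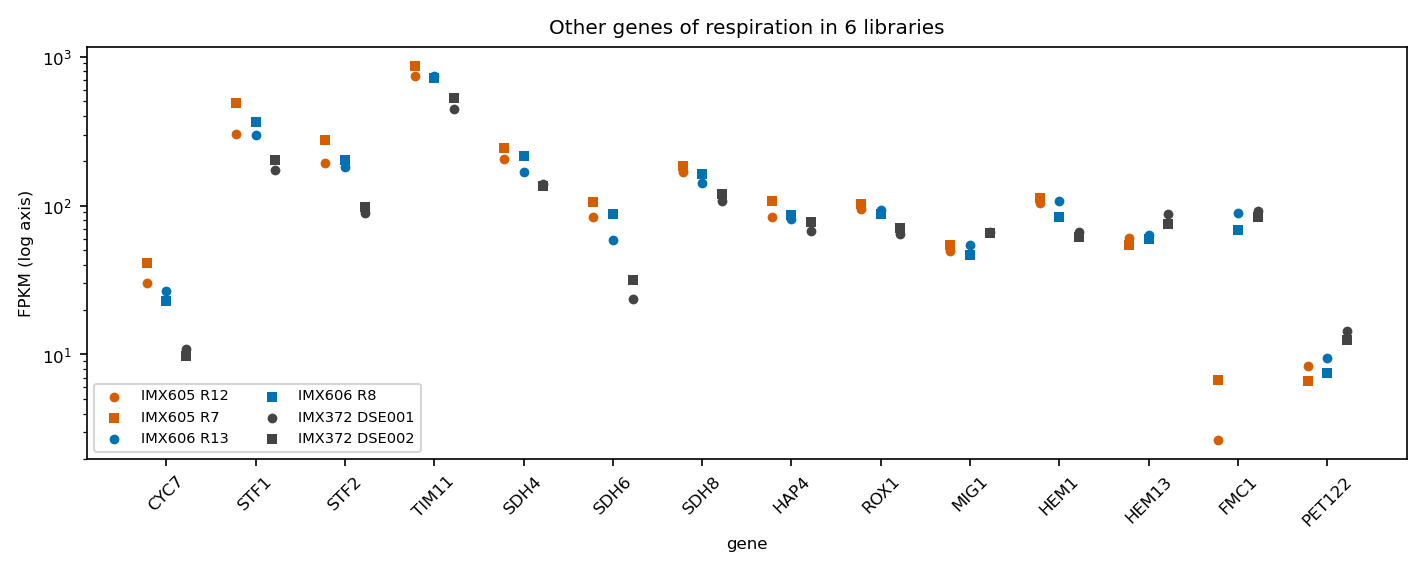
FPKM on a log axis of 14 other genes of respiration in the 6 libraries, coloured by strain. CYC7, STF1, STF2 and SDH6 show the single-locus strains above IMX372, and FMC1 shows IMX605 at 2.65 and 6.69 FPKM with the other libraries at 68.2 to 91.5.

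Among 10 regulators of respiratory genes, 2 rose and 2 fell in IMX605, and 1 rose and 2 fell in IMX606. The shares over all genes tested were 15.0% higher and 15.0% lower in IMX605, and 11.1% and 12.8% in IMX606. HAP4 was at 83.4 and 108 FPKM in IMX605, 81.3 and 86.2 in IMX606, and 67.4 and 78.0 in IMX372. Both libraries of each single-locus strain thus lay above both of IMX372, as in 31.5% (IMX605) and 25.7% (IMX606) of all genes tested. HAP4 itself was not called in the main fit. The change of HAP4 was 0.38 (SE 0.13, adjusted p = 0.0522, limma) in IMX605 and 0.20 (adjusted p = 0.293) in IMX606. In 10 of the 18 other settings HAP4 was called in IMX605, among them without R12 (0.56, adjusted p = 0.0221). The other subunits of its complex differed in direction. HAP5 rose in IMX605 (0.49, adjusted p = 0.0328) and not in IMX606 (0.35, adjusted p = 0.12), HAP3 fell in IMX606 (-0.46, adjusted p = 0.0168), and HAP2 had changes of 0.10 and -0.06. ROX1, the repressor of hypoxic genes, rose by 0.54 and 0.42. MIG1, a repressor that acts under glucose, had changes of -0.35 and -0.39 that passed the test, and RTG1, of the retrograde pathway, fell in IMX605 (-0.58). HAP1, CAT8 and RTG3 were not called in either strain. The falls of MIG1 ended in 11 and 8 of the other settings and HAP5 was lost without R7 (0.38, adjusted p = 0.203) or DSE002 (0.24, adjusted p = 0.251). HAP3 was lost without DSE001 (-0.36, adjusted p = 0.0997), and RTG1 without R12 (-0.47, adjusted p = 0.142), DSE001 (-0.50, adjusted p = 0.168) or DSE002 (-0.67, adjusted p = 0.104). ROX1 was lost in IMX606 without R13 (0.37, adjusted p = 0.0694) or DSE001 (0.35, adjusted p = 0.0902).

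The profile of HAP4 over the 6 libraries was also among the 10 most like the mean profile of the 34 genes, with a Pearson correlation of 0.989. The others of the 10 with a gene name were TSA2, PCD1, TDA10, APJ1, KIN82, SPO20 and MRPL27, at 0.980 to 0.988. This describes 6 libraries of 3 strains, and these genes were picked from the whole table for their likeness.

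FMC1, an assembly factor of F1, had the widest difference of all 129 genes (chromosome 9, 174028 to 174495). It was at 2.65 and 6.69 FPKM in IMX605, 88.9 and 68.2 in IMX606, and 91.5 and 83.6 in IMX372. IMX605 was thus at 5.34% of the IMX372 mean, with a log2 change of -4.06 (SE 0.26, adjusted p = 7.52e-07, limma), and IMX606 was not called (-0.17, adjusted p = 0.681). Between the single-locus strains the change was -3.90 (adjusted p = 1.18e-05). The neighbours on either side were low in IMX605 as well. SGA1, which lies 114 bases away, read 0 and 0.0311 FPKM in IMX605, 1.29 and 1.59 in IMX606, and 1.97 and 1.24 in IMX372. FYV10, 187 bases away on the other side, read 5.03 and 5.59, 17.3 and 18.1, and 13.1 and 17.7 in the same order, a change of -1.36 against IMX372 (adjusted p = 8.14e-05). SGA1, FMC1 and FYV10 lie on chromosome IX, where the labels place the single locus of IMX606. Their low values were in IMX605, whose single locus the labels place on chromosome V. Whether the labels give the right chromosome was not tested, nor was the cause of the low values beside SGA1. The F1 subunits whose assembly FMC1 serves, ATP1 and ATP2, had changes of 0.23 and 0.17 in IMX605, without a call.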

How the data were processed

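Polyadenylated RNA was sequenced from 3 strains with 2 cultures each. Hot phenol extraction and the stranded TruSeq kit for mRNA are given in the labels' protocols, and the tools STAR 2.5.4a, featureCounts, SAMtools, DESeq2 and edgeR in the submitters' processing notes. Neither the counting strand nor the name of the build is given in the sources used here. Coordinates follow the table's CEN.PK113-7D models. The values are FPKM as deposited by the authors for 5625 gene models. Every value was a whole multiple of 1 step per library and gene length (100% of values, tolerance 0.01), which gave the reads on genes.

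Genes averaging 1 FPKM or more (5459, with 166 below) entered a limma 3.58.1 fit (R 4.3.3) of log2(FPKM + 1) that used all 6 libraries, a mean for each strain, an intensity trend, and Benjamini-Hochberg adjustment over all genes at 0.05. The fit left 3 residual degrees of freedom and a median residual SD of 0.116. The fit was tried on normal values simulated from its own means and variances. These held no length trend and no difference between library sets, so the trial cannot speak to either. The p-values rest on the spread between duplicate cultures over all 3 strains, drawn toward that of other genes of like level. This prior carried a median of 8.38 degrees of freedom. Alternatives were other pseudocounts, filters and scalings, limma without the trend, voom on the recovered reads, fits of only the strains compared, each library left out, and the trend over gene length removed (lowess, span 0.1; other spans were added after seeing the data). A planned search of promoters for motifs was not run.

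Named genes were all 34, every regulator and every further subunit or paralog, up to 4 called genes per other list and comparison by adjusted p, and the 10 genes most like the mean profile. MSS51, SGA1 and FYV10, and genes of the lists beyond 4, were named after their values were seen. The genes and lists were chosen with earlier results of these data known. Tables and figures were made in Python 3.11.15 (pandas 2.3.3, numpy 2.4.6, matplotlib 3.10.9).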

Additional observations from a re-analysis of the deposited data

Results flagged for a closer look

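FMC1, the F1 assembly factor, differed between the single-locus strains, with a log2 change of -3.90 in IMX605 against IMX606 by limma's test of that difference (adjusted p = 1.18e-05), and the libraries of both strains did not overlap. The cause was not tested. HAP2, a DNA-binding subunit of the Hap complex, changed by 0.10 in IMX605 and by -0.06 in IMX606 against the same IMX372 libraries, in opposite directions and without a call in either. Both IMX605 libraries (50.1 and 51.5 FPKM) lay above both of IMX606 (46.4 and 44.3), as in 15.7% of all genes tested. The difference between these strains was 0.16 and did not pass limma's test (95% interval -0.08 to 0.40, adjusted p = 0.998).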

How the results depend on the processing

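COX9 in both single-locus strains, and CYC1 and QCR6 in IMX605, kept their calls in all 18 alternatives. Among members called in either setting, the sign turned only with the length trend removed. COX12 then had -0.35, COX8 -0.34 and ATP18 -0.11 in IMX605, and ATP18 -0.07 in IMX606. With a span of 0.3 the values in IMX605 were -0.33, -0.32 and -0.06, and with 0.03 they were -0.32, -0.32 and -0.19, with COX7 at -0.01. Uncalled members crossed 0 elsewhere too, such as ATP20 (-0.25 to 0.30), QCR9 (-0.29 to 0.13) and RIP1 (-0.16 to 0.18) in IMX605. In IMX606 with span 0.03, ATP18 was at -0.14 and COX7 at -0.06. The span of 0.3 called 5 members in IMX606 and limma without the intensity trend 4, against 9. With each library left out, members called ran from 4 to 10 in IMX605 and from 2 to 8 in IMX606 against IMX372, and were 0 between the single-locus strains. The median member change ran from 0.06 to 0.24, from -0.02 (without IMX606 R8) to 0.14, and from 0.01 to 0.17. Over all genes the calls ran from 798 to 1954 (main 1635), from 594 to 1267 (1304) and from 7 to 96 (11), and a fit of only IMX605 and IMX606 gave 7. In IMX606, 604 genes were higher and 700 lower, against 740 and 557 with median-of-ratios scaling and 638 and 434 without the length trend.

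No paired analysis was possible because the columns of the deposited table carry no replicate numbers. Each strain has 2 cultures, so a single library can decide a call, and those of IMX372 were deposited earlier than the rest. The promoter motif search was not run because no promoter sequences of the build were used here.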
